A study of Mus musculus with 7 samples.

Results

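5-Formylcytosine (5fC) was examined at 39 developmental transcription factor genes of the Pax, Lhx, sine oculis, Irx, Dlx, Otx and Msx families in mouse J1 embryonic stem (ES) cells. The genes were taken by name from the GENCODE M1 annotation of mm9, where they made up 39 of 22359 protein-coding genes, as 9 Pax, 8 Lhx, 5 sine oculis (Six2 to Six6), 6 Irx, 6 Dlx, 2 Otx and 3 Msx genes. None lies in a Hox cluster. The family names stand for a shared kind of DNA-binding protein rather than for a homeobox in every gene, since Pax1 and Pax9 encode a paired domain without a homeodomain. The 39 genes had a value at the transcription start site (TSS) in every pulldown library, as had 22077 of the 22359 genes, which served as the background.

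The data comprised 6 pulldown libraries, 2 biological replicates for each of 3 conditions, and 1 genomic input library that served all of them. Wild-type J1 cells, libraries BHAM359 and BHAM470, shared their dishes with irradiated feeder cells. The siRNA control cells, BHAM479 and EAR001, and the TDG KD cells, BHAM480 and EAR003, were grown without feeders and transfected repeatedly with non-targeting siRNA or with a pool of siRNAs against Tdg. Transfection and the lack of feeders cannot be told apart in a comparison of siRNA control with wild type. All cells were of a single line, and its identity could not be checked against marker genes because no expression was measured in these files.

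5fC arises when TET enzymes oxidise 5-methylcytosine further than 5-hydroxymethylcytosine, and thymine DNA glycosylase (TDG) cuts it out of DNA. The genes described here pattern the embryo: they encode factors that set the identity of regions of the brain, eye, limb, kidney and skull. In ES cells most genes of this kind are known to be held silent but ready by Polycomb proteins, and their promoters tend to lie in long CpG islands (CGIs), stretches rich in the CpG dinucleotide on which cytosine methylation and its oxidation products occur.

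The start regions that open and close the order of wild-type 5fC are printed first, from the mm9 sequence, 300 bases ending at the base before the TSS, 5′ to 3′ on the gene's strand, with each CpG in capitals. Six5 (chr7:19679593-19679892, plus strand) and Msx3 (chr7:147235040-147235339, minus strand) had the highest mean rank over the 2 wild-type libraries. Pax1 (chr2:147187361-147187660, plus strand) and Otx2 (chr14:49287320-49287619, minus strand) had the lowest.
Six5: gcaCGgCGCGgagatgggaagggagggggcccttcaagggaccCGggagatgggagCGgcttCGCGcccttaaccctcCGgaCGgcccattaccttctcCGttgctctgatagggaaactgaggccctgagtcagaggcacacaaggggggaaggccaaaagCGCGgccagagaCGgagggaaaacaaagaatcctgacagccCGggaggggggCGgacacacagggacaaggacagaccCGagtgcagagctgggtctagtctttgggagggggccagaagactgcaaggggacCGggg
Msx3: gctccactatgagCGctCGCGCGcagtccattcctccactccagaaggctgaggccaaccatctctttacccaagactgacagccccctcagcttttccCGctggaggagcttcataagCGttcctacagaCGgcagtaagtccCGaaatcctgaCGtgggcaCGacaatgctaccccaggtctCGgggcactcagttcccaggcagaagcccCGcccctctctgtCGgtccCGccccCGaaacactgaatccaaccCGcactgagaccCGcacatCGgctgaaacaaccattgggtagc
Pax1: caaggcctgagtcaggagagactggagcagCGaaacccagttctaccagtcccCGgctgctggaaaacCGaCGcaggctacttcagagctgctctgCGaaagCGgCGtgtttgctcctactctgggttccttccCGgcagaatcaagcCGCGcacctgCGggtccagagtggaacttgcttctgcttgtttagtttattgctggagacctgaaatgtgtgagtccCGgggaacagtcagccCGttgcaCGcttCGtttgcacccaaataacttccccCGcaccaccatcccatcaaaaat
Otx2: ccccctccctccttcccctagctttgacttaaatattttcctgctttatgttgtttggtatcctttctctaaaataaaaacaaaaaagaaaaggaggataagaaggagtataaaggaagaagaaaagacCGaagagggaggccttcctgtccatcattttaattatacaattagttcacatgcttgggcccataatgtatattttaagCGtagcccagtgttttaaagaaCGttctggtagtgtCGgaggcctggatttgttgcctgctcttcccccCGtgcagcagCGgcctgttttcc

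These windows held 17 CpGs for Six5, 18 for Msx3, 16 for Pax1 and 6 for Otx2, beside a median of 16 over the 39 genes, 10 over all protein-coding genes and 19 over genes with a CGI at the TSS. The number of CpGs thus did not part Pax1 from the top of the order. An exon of an antisense transcript annotated on the other strand covers part of the Pax1 window.

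Dlx5 (chr6:6832086-6832385, minus strand) is shown as an example from a gene pair.
Dlx5: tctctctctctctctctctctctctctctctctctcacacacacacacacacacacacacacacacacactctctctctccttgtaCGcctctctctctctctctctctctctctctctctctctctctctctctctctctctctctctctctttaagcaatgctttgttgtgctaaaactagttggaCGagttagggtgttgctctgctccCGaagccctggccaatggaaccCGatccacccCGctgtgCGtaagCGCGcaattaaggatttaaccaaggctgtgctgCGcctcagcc

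The 300 bases before the TSS of Dlx5 held 9 CpGs, below the median of the 39 genes, although its TSS window touched a CGI. Much of the window is a run of dinucleotide repeats.

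The deposited domains tile the genome with 3 states, enriched, background and unconfident, and each carries a value, its mean number of pulldown reads less input reads in bins of 100 bp. A gene was counted as enriched where at least 50% of the window from 1 kb before to 1 kb after its TSS lay in enriched domains. The 5fC level was the length-weighted value over that window less the mean of the library, per M (mega) uniquely placed reads. Where the window lies inside a wider domain, the level is a mean over that whole domain and not a local value. Its percentile is the rank among the 22077 genes of the same library. Dividing by depth or shifting the zero of a library leaves the percentiles as they are. The values were not scaled for depth before the input was taken off, however, so the weight of the input differs between libraries and could enter the ranks, which was not tested.

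The libraries differed in grain. BHAM359, the deepest with 45.9 M reads, had 389620 enriched domains whose median width was 700 bp, while the other 5 held 4901 to 40121 domains with median widths of 5900 to 24550 bp. BHAM480, with 20.4 M reads the shallowest, stood apart, since 504.9 Mb were unconfident in it against 0.214 to 6.30 Mb in the others. In BHAM480, 13 of the 39 TSS windows were at least 50% unconfident, so that a gene not enriched there is often a gene without a call. Results are therefore given by library.

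At the TSS, the 39 genes were enriched more often than protein-coding genes at large in each library. In wild-type cells 30 of 39 were enriched in BHAM359, where the share of all genes was 53.3%, and 32 in BHAM470, where it was 47%. In the siRNA control 33 were enriched in BHAM479, beside 43.5% of all genes, and 22 in EAR001, beside 39.8%. In TDG KD 14 were enriched in BHAM480, beside 15.3%, and 34 in EAR003, beside 53.7%. The shares ranged from 35.9% in BHAM480 to 87.2% in EAR003.

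**Figure D1:**
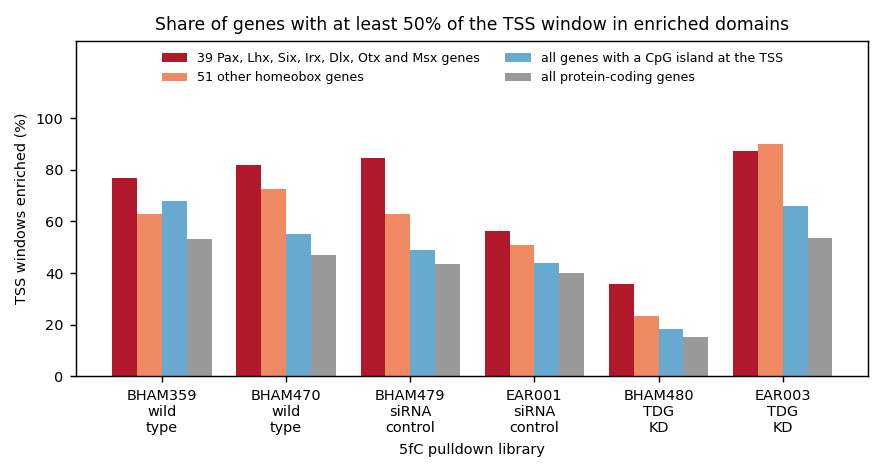
Bars give the percentage of genes (y axis) with at least 50% of the TSS window in enriched domains in each of the 6 libraries (x axis), for the 39 genes, 51 other homeobox genes, genes with a CpG island at the TSS and all protein-coding genes. The 39 genes stood above all protein-coding genes in each library, at 35.9% against 15.3% in BHAM480 and 87.2% against 53.7% in EAR003.

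Both wild-type replicates were enriched at 27 of the 39 genes, where 38.4% of all genes and 46.7% of CGI genes were. Both siRNA control replicates were enriched at 20, beside 33.3% of all genes, and both TDG KD replicates at 14, beside 14.5%. The wild-type count rested on domains of moderate value: without the 25% of enriched domains of lowest value in each library it was 11, beside 25.9% of all genes, close to the background. The siRNA control and TDG KD counts under that setting were 17, beside 27.6%, and 11, beside 8.91%. The TDG KD count is set by BHAM480, since EAR003 alone gave 34. That of the siRNA control is set by EAR001, since BHAM479 alone gave 33.

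8 genes were enriched at the TSS in all 6 libraries, namely Dlx3, Dlx4, Irx2, Irx3, Irx5, Irx6, Lhx3 and Six5, beside 10.6% of all genes. None of the 39 was without enrichment in every library, whereas 30.6% of all genes and 16.6% of CGI genes were. Irx1, Otx2 and Pax8 were enriched in 1 library each. 6 of the 8 genes enriched throughout belong to the Dlx3-Dlx4 and Irx clusters, and Dlx3 and Dlx4 count as one observation in 5 libraries, as described for the pairs.

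Ranked by level, the typical gene of the 39 sat in the upper part of the genome without being extreme. The median percentile was 63.0 and 67.8 in the wild-type libraries, 78.6 and 66.2 in the siRNA control and 73.9 and 71.9 in TDG KD. Above the genome's median lay 29 and 33 genes in wild type, 35 and 26 in the siRNA control, and 33 and 35 in TDG KD. The spread among genes was wide, from 0.621 to 99.7 in BHAM470 alone. CGI genes at large had median percentiles of 60.9 in BHAM359 and 58.2 in BHAM470.

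**Figure D2:**
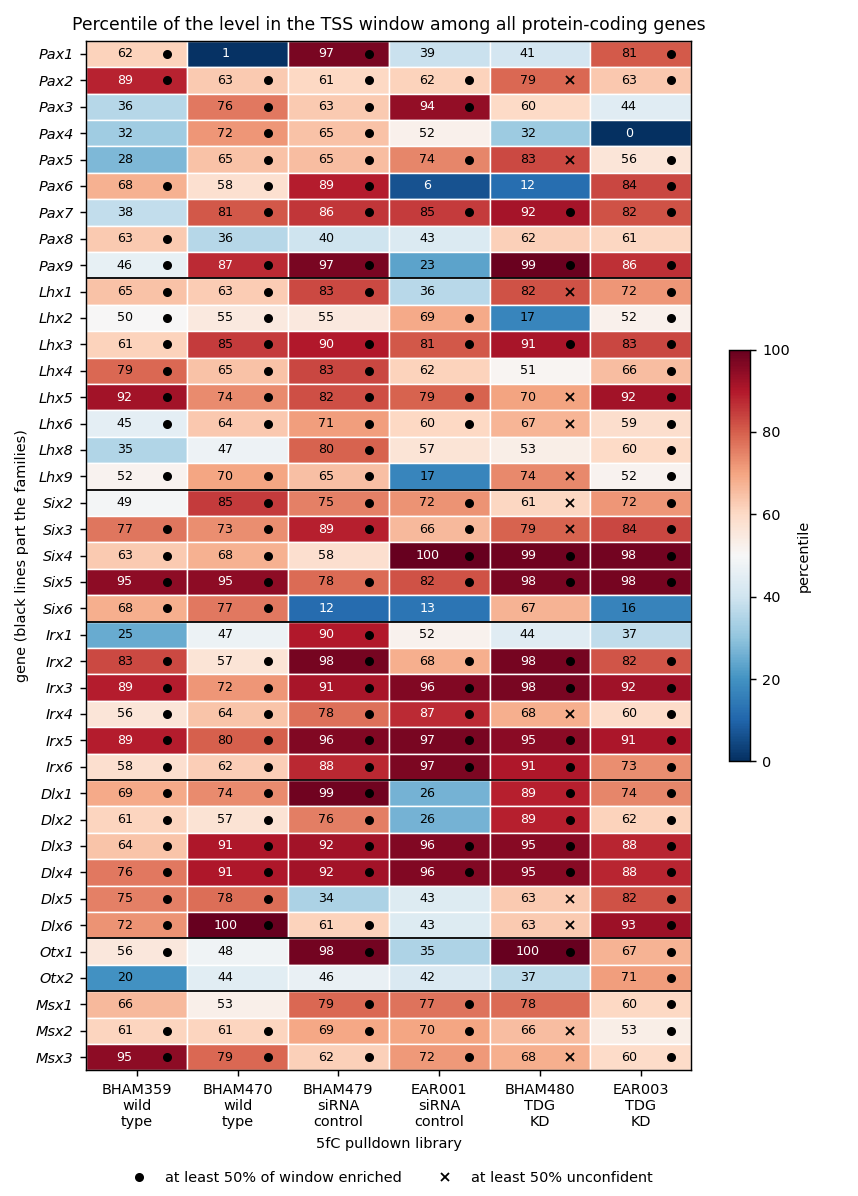
Each cell gives the percentile (0 to 100, number and colour) of the level in the TSS window of a gene (rows, grouped by family) among all protein-coding genes of a library (columns). A dot marks windows at least 50% enriched and a cross windows at least 50% unconfident. Six5 lay at 78.2 or above in every library, while Pax1 ran from 0.621 to 97.4.

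The gene bodies, from 1 kb after the TSS to the 3′ end, followed the starts. Both wild-type replicates were enriched over at least 50% of the body at 21 of 39 genes, beside 36.3% of the 19367 genes with a body long enough to measure. The counts were 20 in the siRNA control, beside 39.2%, and 13 in TDG KD, beside 15.1%. BHAM470 alone gave 32 genes in wild type, beside 47.2% of all genes, and BHAM359, with its fine domains, 21, beside 38.2%. Six5, Irx3, Lhx3 and Dlx4 were covered over 94.3% or more of their bodies in all 6 libraries. Otx1, which encodes a forebrain factor, was covered at 84.1% or more in all 6 although its most upstream start was enriched in only 4. The long Pax3 gene was enriched at its start in 3 libraries. Of its body 1.79 to 14.0% was enriched in the 5 libraries other than BHAM480, where none of it was.

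BHAM359 has domains fine enough to resolve a start, and there enrichment at the 39 genes was broader than at CGI genes and not higher at the start. The TSS base itself was enriched at 28 of the 39 genes (71.8%), less than the 80.0% of CGI genes and more than the 62.9% of all genes. The mean level at that base was 0.0327 reads per bin per M reads for the 39 genes, 0.0419 for CGI genes and 0.0301 for all genes. At 2 kb downstream the level was 0.0261 for the 39 genes, 0.0129 for CGI genes and 0.0105 for all genes. At 5 kb downstream, 48.7% of the 39 genes were enriched beside 38.5% of CGI genes and 33.9% of all genes. At 2 kb before the TSS 51.3% of the 39 genes were enriched, beside 31.3% of CGI genes, and at 5 kb before the TSS the 39 genes stood at 30.8%, beside 34.0% of CGI genes. These are descriptions of one library each, without a test.

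The wider domains of the other libraries showed a plateau. In BHAM470, 82.1% of the 39 genes were enriched at the TSS and 82.1% still at 5 kb downstream, where CGI genes had gone from 55.4% to 47.4%. In BHAM479 the shares were 84.6% and 69.2%, and in EAR003 87.2% and 74.4%. EAR001 and BHAM480, whose domains are wide or sparse, were nearly flat, at 56.4% and 53.8% and at 35.9% and 35.9%. The median length of the 39 genes was 8038 bp beside 15121 bp for all genes, so that a point 5 kb downstream is still inside most of them.

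**Figure D3:**
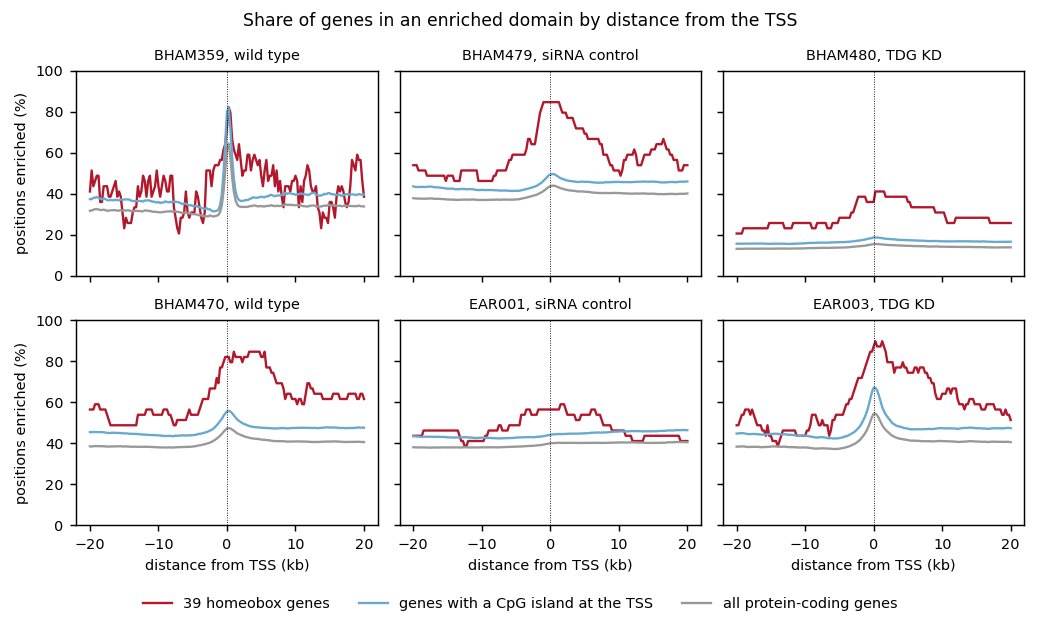
Lines give the percentage of genes in an enriched domain (y axis) by distance from the TSS in kb (x axis, negative upstream), in a panel for each library, for the 39 genes, genes with a CpG island at the TSS and all genes. In BHAM359 the 3 lines peak together near the TSS, and in BHAM470 the line of the 39 genes stays at 82.1% at 5 kb downstream while that of CGI genes falls to 47.4%.

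The sequence of the 39 loci was itself unusual in the amount of CGI it held. A CGI, here merged 500 bp windows whose GC content was 55% or more and whose CpG ratio, observed over expected, was 0.65 or more, touched the TSS window of 37 of 39 genes. The exceptions were Pax4, which encodes a factor of the insulin-producing cells, and Lhx3, a factor of the pituitary and motor neurons. Lhx3 had 2699 bp of CGI further along, and Pax4 had none within 10 kb. Within 10 kb of the TSS the 39 genes had a median of 3399 bp of CGI, beside 996 bp over all genes and 1395 bp over CGI genes. At least 3000 bp lay near 26 of the 39 genes, a class that holds 1021 of the 22077 genes.

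Among genes with that much CGI nearby, the 26 lay above the share of the class in some libraries and below it in others. The class includes the 26 genes, and the part of CGI in their enrichment was not tested. Of the 26 genes, 19 and 21 were enriched at the TSS in the wild-type libraries, where 75.2% and 75.4% of the 1021 genes were. The siRNA control gave 24 and 15, beside 70.9% and 62.9%, and TDG KD 9 and 24, beside 40.5% and 83.5%. The count of 24 in BHAM479 lay farthest above the share of the class. In BHAM359 the level of the island at the TSS exceeded that of the 2 kb on either side in 26 of 37 genes, was lower in 8 and equal in 3, with means of 0.0339 and 0.0215 (levels within 1e-06 counted as equal). In the other 5 libraries island and flanks lay in the same domain, and so held the same level, in 22 to 34 of 37 genes, and the island was higher in 2 to 12. Over the 39 genes, Spearman's correlation of the percentile with GC content of the window was 0.42 in BHAM359 and 0.08 to 0.34 in the others. The points are genes of one library, which share its depth and base composition.

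The Pax genes, which encode paired-domain factors of the eye, kidney, thyroid, muscle and thymus, varied between libraries. Of 9 genes, 5 and 7 were enriched in the wild-type libraries, 8 and 4 in the siRNA control, and 2 and 6 in TDG KD, and none was enriched in all 6. Pax2, a factor of kidney and optic nerve, was enriched in 5 libraries and unconfident in BHAM480, with percentiles of 88.6 and 62.9 in wild type, 60.5 and 61.6 in the siRNA control and 78.7 and 63.4 in TDG KD. Pax6, the eye factor, was at 67.7 and 58.1, then 89.1 and 6.27, then 12.1 and 83.5. Both siRNA conditions therefore had 1 replicate above and 1 below both wild-type values for Pax6. Pax8, a thyroid and kidney factor, reached 51.7% of its window in BHAM359, was 46.7% covered in EAR003 and was not covered in the other 4.

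Pax1, a factor of the sclerotome that forms the vertebrae, had the lowest mean wild-type percentile of the 39, with 61.6 in BHAM359 and 0.621 in BHAM470. Its percentiles were 97.4 and 38.7 in the siRNA control and 40.8 and 80.8 in TDG KD, so that the replicates of each condition disagreed by more than the conditions did. The most upstream start of Pax1 lies 3069 bp before the start of its longest coding transcript. At that second start both wild-type libraries were fully enriched, with percentiles of 83.1 and 81.4, and the siRNA libraries gave 97.4 and 38.7, then 40.8 and 85.7. The low place of Pax1 thus held only for the upstream start. 7 of the 39 genes had such a second start at least 1 kb away, and with it 28 rather than 27 genes were enriched in both wild-type replicates.

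The Lhx genes encode LIM-homeodomain factors of the forebrain, spinal cord and pituitary. Of 8 genes, 7 and 7 were enriched in wild type, 7 and 4 in the siRNA control, and 1 and 8 in TDG KD. Lhx3 was enriched in all 6 libraries, at percentiles of 61.4 and 84.8 in wild type, 89.9 and 80.9 in the siRNA control and 91.1 and 83.4 in TDG KD, although no CGI touched its window. Lhx5, a forebrain factor with 7167 bp of CGI within 10 kb, the most of the 39, was enriched in 5 libraries, with percentiles of 70.2 to 92.0 over the 6. Lhx8, a factor of the basal forebrain, was at 35.1 and 47.4 in wild type and was enriched only in BHAM479 and EAR003.

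Six2 to Six6 encode the sine oculis factors of eye, muscle and kidney. Of these 5 genes, 4 and 5 were enriched in wild type, 3 and 4 in the siRNA control, and 2 and 4 in TDG KD. Six5, which lies beside Dmpk and is a factor of the lens and muscle, held the highest place of the 39 in wild type, with percentiles of 94.9 and 94.8. It was at 78.2 and 81.8 in the siRNA control and at 97.6 and 98.0 in TDG KD, and its window was fully enriched in every library. The domain around its start was 25100 bp wide in BHAM359 and 31900 to 270000 bp wide in the others. Six4, a muscle factor, was at 63.0 and 67.8 in wild type, 58.4 and 99.96 in the siRNA control, and 98.7 and 98.1 in TDG KD.

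Six6, a factor of the retina and pituitary, was enriched in wild type alone, over 80.0% and 78.2% of its window. Its levels were 0.0334 and 0.0226 reads per bin per M reads in wild type, −0.00704 and −0.00420 in the siRNA control, and 0.00778 and −0.00770 in TDG KD. The wild-type values lay above all 4 siRNA values. Its start lay in enriched domains of 1600 and 2600 bp in wild type, and in background domains of 148100 and 477500 bp in the siRNA control. The siRNA control values are thus means over wide stretches rather than local ones. In percentiles Six6 went from 68.2 and 76.5 to 11.6 and 13.4 in the siRNA control. TDG KD gave 67.2, in a window of BHAM480 that was 38.2% enriched, and 16.5 in EAR003.

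The Msx genes, muscle-segment homeobox factors of limb, tooth and skull, were enriched at 2 and 2 of 3 in wild type, 3 and 3 in the siRNA control, and 0 and 3 in TDG KD. Msx3, which is expressed in the dorsal neural tube, was the second highest in wild type, at percentiles of 94.8 and 78.6. It was at 61.9 and 71.8 in the siRNA control and at 68.3 and 59.6 in TDG KD. Otx1 and Otx2 encode the orthodenticle factors of the forebrain and eye, and Otx2 is also a factor of the early epiblast. Otx2 was at 19.9 and 44.3 in wild type, 46.2 and 42.4 in the siRNA control and 36.7 and 70.9 in TDG KD, and was enriched in EAR003 alone, in a domain of 3600 bp. Otx1 was at 55.8 and 47.9, then 98.2 and 34.5, then 99.9 and 67.3. These values are for its most upstream start. At the start of its longest coding transcript, 1282 bp away, Otx1 was at 71.2 and 73.7, then 98.2 and 95.4, then 99.9 and 98.9.

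The Dlx genes, distal-less factors of the limb, branchial arches and forebrain, lie in 3 convergent pairs, which differed in how far enrichment reached. The Dlx3-Dlx4 pair on chromosome 11, which spans 26.2 kb, lay wholly in enriched sequence in 5 libraries, within a single domain 229400 to 374100 bp wide. In BHAM359 it was 84.3% enriched, in 8 domains. Dlx3, a factor of skin, hair and tooth, was at percentiles of 64.3 and 90.5 in wild type, 92.0 and 96.2 in the siRNA control and 95.5 and 88.1 in TDG KD. Dlx4 was at 76.2 in BHAM359, and in the other 5 libraries its level equalled that of Dlx3, since the 2 genes shared the domain.

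Chromosome 11 as a whole ranked high in the siRNA libraries. The median percentile of its 1652 genes was 61.2 and 64.1 in wild type, 69.0 and 76.4 in the siRNA control and 70.9 and 66.1 in TDG KD. Among the genes of that chromosome alone, Dlx3 stood at 53.1 and 87.2, then 87.7 and 96.7, then 92.9 and 83.3, so that it remained above the middle of its chromosome in all 6 libraries. The part of the chromosome in the result was not tested.

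The Dlx1-Dlx2 pair on chromosome 2, of 18.6 kb, encodes factors of forebrain interneurons. Its span was enriched over 62.5% and 100% in wild type, 67.3% and 0% in the siRNA control, and 100% and 100% in TDG KD. Dlx1 was at percentiles of 68.8 and 73.7, then 98.7 and 26.3, then 88.7 and 74.2. Dlx2 was at 61.0 and 57.2, then 75.7 and 26.3, then 88.7 and 61.6. The pair was thus covered in each library but EAR001, and in BHAM470, BHAM480 and EAR003 a single domain took in both starts.

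The Dlx5-Dlx6 pair on chromosome 6, of 18.8 kb, encodes factors of the jaw and bone. Both starts were enriched in both wild-type libraries and in EAR003, and the sequence between the genes was enriched over 19.5%, 43.4% and 49.8% there. In BHAM470 and EAR003 a domain of 11900 and 12200 bp covered the whole Dlx5 gene and part of the sequence between the pair. The span was enriched over 22.7% and 49.9% in wild type, 22.8% and 0% in the siRNA control, and 0% and 55.7% in TDG KD, where BHAM480 was unconfident throughout. Dlx5 was at percentiles of 75.3 and 78.0 in wild type, 34.0 and 43.3 in the siRNA control and 63.2 and 82.0 in TDG KD. Dlx6 was at 72.4 and 99.7, then 61.4 and 43.3, then 63.2 and 92.7. For Dlx5 both siRNA control values lay below the other 4.

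**Figure D4:**
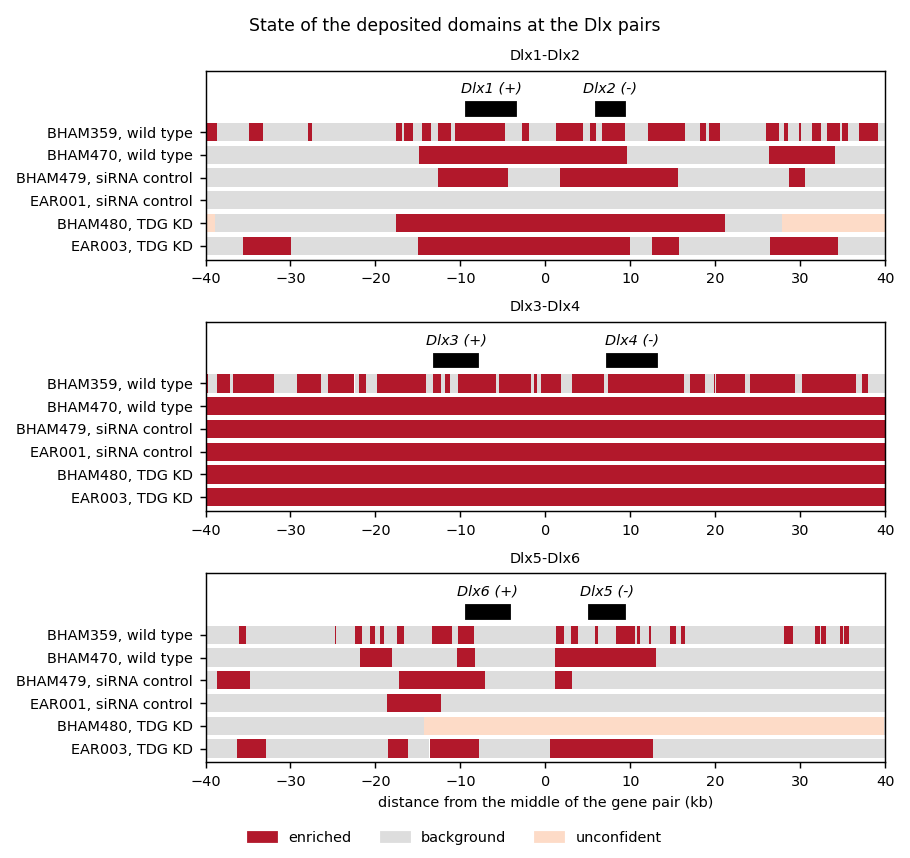
Coloured blocks give the state of each deposited domain (enriched, background or unconfident) in the 6 libraries (rows) within 40 kb of the middle of each Dlx pair (x axis, kb), with the genes in black and their strand in parentheses. Dlx3-Dlx4 is enriched throughout in 5 libraries, Dlx1-Dlx2 in 3, and at Dlx5-Dlx6 the enriched stretches cover 0 to 55.7% of the span.

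The Irx genes, Iroquois factors of heart, limb and nervous system, lie in 2 clusters of 3. The Irx1-Irx2-Irx4 cluster on chromosome 13 spans 1311 kb and the Irx3-Irx5-Irx6 cluster on chromosome 8 spans 882 kb, so that most of each span is intergenic. On chromosome 13, the sequence between the genes was enriched over 26.5% and 27.5% in wild type, 33.5% and 24.9% in the siRNA control, and 4.32% and 26.7% in TDG KD. The genes themselves were enriched over 54.3% and 84.3%, then 89.9% and 72.6%, then 27.0% and 79.2%. Enrichment was thus higher on the genes than between them in each library. On chromosome 8 the genes were enriched over 75.4% in BHAM359 and 100% in the other 5, and the sequence between them over 40.1% and 71.7% in wild type, 95.3% and 96.1% in the siRNA control, and 67.9% and 86.1% in TDG KD.

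Within the chromosome 13 cluster the 3 genes differed. Irx2 was enriched in all 6 libraries, at percentiles of 83.0 and 56.9 in wild type, 98.0 and 68.1 in the siRNA control and 97.7 and 81.5 in TDG KD. Irx4, a factor of the heart ventricle, was enriched in 5 and unconfident in BHAM480, at 56.4 and 64.3, then 77.7 and 87.4, then 68.2 and 59.7. Irx1 was the exception of the family, enriched in BHAM479 alone, at 24.9 and 47.2, then 89.9 and 52.3, then 44.1 and 37.4. Irx1 had 3774 bp of CGI within 10 kb and Irx2 4192 bp, so that a like amount of CGI went with unlike levels.

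On chromosome 8, Irx3, Irx5 and Irx6 were enriched in all 6 libraries. Irx3 was at percentiles of 89.2 and 71.9 in wild type, 91.1 and 96.2 in the siRNA control and 97.6 and 92.3 in TDG KD. Irx5, a factor of retina and heart, was at 89.2 and 79.9, then 96.4 and 97.3, then 95.3 and 90.6. Irx6 was at 58.2 and 62.4, then 87.6 and 97.2, then 90.5 and 73.3. These ranks moved with the chromosome. The median percentile of the 1079 genes of chromosome 8 was 67.1 and 68.2 in wild type, 93.1 and 96.8 in the siRNA control and 89.6 and 85.5 in TDG KD.

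Ranked within chromosome 8, Irx3 was at 78.3 and 55.7 in wild type, 47.7 and 47.7 in the siRNA control and 75.5 and 59.1 in TDG KD. Irx5 was at 78.4 and 60.6, then 62.9 and 56.3, then 63.6 and 56.4, and Irx6 at 37.1 to 54.4 over the 6 libraries. Irx5 thus lay above the middle of its chromosome in all 6 libraries, and Irx3 in 4. On chromosome 13, Irx2 lay at 75.7 to 99.4 within its own chromosome. The median percentile of chromosome 13 was at most 38.4 in any library. The only input library came from wild-type cells, so a difference in chromosome 8 copy number between cultures would enter these ranks as well. Copy number was not measured here, and its part in the ranks of the Irx genes was not tested.

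**Figure D5:**
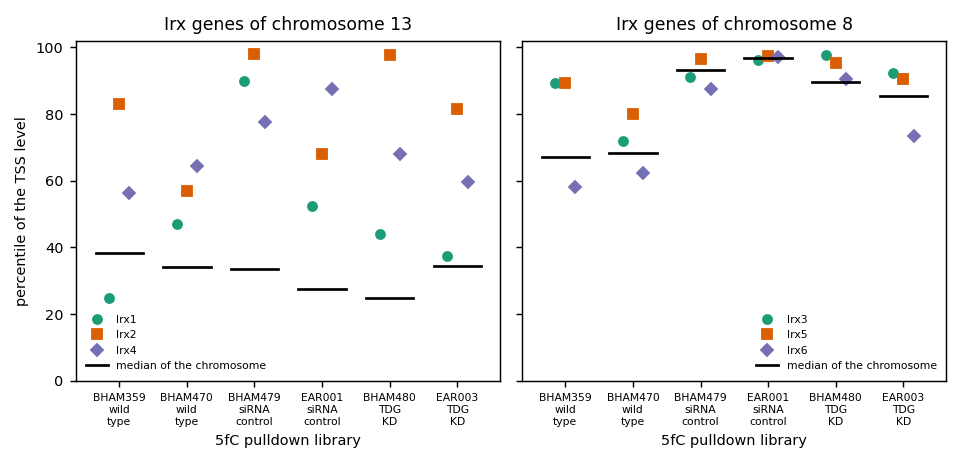
Points give the percentile of the TSS level (y axis) of the Irx genes of chromosome 13 (left) and chromosome 8 (right) in each library (x axis), and bars the median over the protein-coding genes of that chromosome. Irx2 and Irx4 lie above the chromosome 13 bar in all 6 libraries, while the chromosome 8 genes lie on either side of a bar that stands at 85.5 to 96.8 in the siRNA libraries.

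TDG KD was compared with the siRNA control to ask whether loss of the glycosylase goes with relatively more 5fC at these genes. The level has the library mean taken off, and the percentile is a rank within a library. A rise in 5fC shared by the whole genome therefore could not be measured and was not tested. The paper reports from mass spectrometry that the overall amount of this base rose in TDG KD. By limma over all 22077 genes, 0% were called at an adjusted p of 0.05, and none of the 39 was. At an unadjusted p under 0.05 there were 184 genes, none of them among the 39, and with ranks in place of levels 720 genes, 3 of them among the 39, with none called. With 2 libraries a condition an exact permutation test of a single gene cannot go below 0.33. 34 of 39 genes had a higher mean level in TDG KD, where 62.3% of all genes did, and the median difference was 0.00681 reads per bin per M reads, beside 0.00258 over all genes.

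That direction came from 1 pair of libraries. Within the EAR prefix, 35 of 39 genes were higher in TDG KD by level, beside 61.0% of all genes and 73.7% of CGI genes. Within the BHAM prefix 9 of 39 were, beside 39.2% of all genes and 32.1% of CGI genes. Enriched domains had a median width of 24550 bp in EAR001 and 5900 bp in EAR003, and the part of this was not tested. By percentile, 21 were higher within EAR and 19 within BHAM. The 2 TDG KD percentiles lay above both siRNA control percentiles at 6 of 39 genes, where 11.7% of all genes did so, and below both at 8, where 19.8% did so. These shares are near the background.

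The genes with the largest change of mean percentile in the same direction within both prefixes were as follows. Dlx5 went from 34.0 and 43.3 to 63.2 and 82.0, with no overlap, although the 63.2 of BHAM480 comes from an unconfident domain shared with Dlx6. Pax9, a factor of tooth and thymus, went from 97.4 and 23.3 to 99.3 and 86.5. The 23.3 of EAR001 comes from a background domain 3007100 bp wide. The values of BHAM479, BHAM480 and EAR003 come from enriched domains of 8300 to 11700 bp. Six6 went from 11.6 and 13.4 to 67.2 and 16.5, again with no overlap in percentile. By level, however, its EAR003 value lay below both siRNA control values. The difference in level was 0.0202 ± 0.0119 (SE, n = 2 libraries a condition) for Dlx5, with an adjusted p of 1.00 by limma, and was likewise short of the threshold for Pax9 and Six6.

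In the other direction, Pax4 went from 64.7 and 52.4 to 32.0 and 0.140, and Irx1 from 89.9 and 52.3 to 44.1 and 37.4. Lhx2, a factor of the eye and cortex, went from 55.2 and 68.8 to 17.0 and 52.4. For Pax4 and Irx1 the 2 conditions did not overlap. For Lhx2 both TDG KD percentiles lay below both siRNA control percentiles, but by level its EAR003 value lay above both siRNA control values. Pax4 had the smallest unadjusted p of the 6, 0.0548 by limma over all genes, with a difference of −0.0179 ± 0.00843 (SE, n = 2 libraries a condition).

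The siRNA control was also set beside wild type, a comparison in which transfection and the lack of feeders enter together. By limma 0% of the 22077 genes were called, and 4 of the 39 had an unadjusted p under 0.05, beside 7.14% of all genes. These were Six6, Dlx5, Dlx6 and Msx3, each lower in the siRNA control. For Six6 the mean level was 0.0280 ± 0.00764 (SD, n = 2) in wild type and −0.00562 ± 0.00201 (SD, n = 2) in the siRNA control, a difference of −0.0336 ± 0.00902 (SE) with an adjusted p of 0.481 by limma. The siRNA control values of Six6 are means over background domains of 148100 and 477500 bp, not local values at its start. 5 of the 39 genes were higher in the siRNA control, beside 25.2% of all genes, with a median difference of −0.0115, beside −0.0109.

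The size of the difference depended on a wild-type library. Without wild type replicate 2 (BHAM470) the median difference over the 39 genes was −0.0187, beside −0.0176 over all genes. Without wild type replicate 1 (BHAM359) it was −0.00684, beside −0.00182. The lone wild-type library is assumed in those fits to vary like the others, so genes called in them are not listed. Enriched domains had a median width of 700 bp in BHAM359, beside 9400 and 24550 bp in the siRNA control libraries. A level at a start is therefore more local in BHAM359, and the part of this in the difference was not tested.

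Related genes were read in the same way. Of 51 other homeobox genes outside the Hox clusters (such as Emx, En, Gbx, Nkx, Pitx and Meis genes), 32 and 37 were enriched at the TSS in wild type, 32 and 26 in the siRNA control, and 12 and 46 in TDG KD. Their shares lay above those of all genes in each library, as those of the 39 did. A list of 19 cofactor and related genes held the Eya and Dach partners of the sine oculis factors. It also held Ldb, Lmo and Tle genes, and the homeobox genes Isl1, Isl2 and Crx. The list is therefore not free of homeobox genes. Of the 19, 8 and 6 were enriched in wild type, 6 and 6 in the siRNA control, and 1 and 7 in TDG KD. The median percentile of the cofactor list was 32.4 to 45.5 over the 6 libraries, below the middle of the genome in each, where that of the 39 genes was 63.0 to 78.6.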

How the data were processed

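5fC was labelled with a biotin probe, pulled down and sequenced in 6 libraries. The authors placed reads on mm9 with BWA (0.6.1 per the submitters' processing notes) and, from uniquely placed ones, had rseg find domains of each library against the input. The deposited value of a domain is a score, the mean of pulldown minus input reads over 100 bp bins, not scaled for depth, and a second deposited score that grows with width was not used. Depth was 20.4 to 45.9 M reads in the pulldowns and 26.5 M in the input. Counts of reads within regions were not analysed here, so precision rests on 2 replicates.

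Python 3.11.15 and limma 3.58.1 (R 4.3.3, eBayes with trend, Benjamini-Hochberg adjustment over all genes) were used. The TSS was the most upstream 5′ end of a gene's protein-coding transcripts. Replicates were not pooled. P-values are two-sided and measure the spread between these libraries. The named genes were those of the Dlx and Irx clusters, the 3 highest and 3 lowest by mean wild-type percentile, and the 3 largest rises and falls in mean percentile from siRNA control to TDG KD in both prefixes of the library names, BHAM and EAR. Others are described with their family. The members and lists were chosen with earlier results of these data known. In simulated data for TDG KD against siRNA control, 200 of 200 genes changed by 8 times the median spread were called, and 11 of the unchanged genes. Each simulated gene had the same spread and smaller changes were not simulated. The simulation thus checks that the procedure runs and does not measure its power for smaller changes. Alternatives covered the window, TSS, share, domain value, ranks, prefix, replicates and CGI definition. Percentiles within a chromosome were added after seeing the data. A start-region sequence that the rule for printed sequences took is not reported here.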

Additional observations from a re-analysis of the deposited data

How the results depend on the processing

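Dropping the 25% of enriched domains of lowest value took the wild-type counts from 27 to 11 of 39 at the TSS and from 21 to 12 in the body, beside 25.9% and 21.1% of all genes. Taking either replicate in place of both gave 35 genes at the TSS for the siRNA control and 34 for TDG KD. The share of all genes with either replicate was not computed. It is at least 43.5% for the siRNA control and 53.7% for TDG KD, the shares of BHAM479 and EAR003 alone. Leaving out each replicate gave 22 to 33 genes at the TSS for the siRNA control, beside 39.8 to 43.5% of all genes. For TDG KD it gave 14 to 34, beside 15.3 to 53.7%. In the body it gave 21 to 32 for wild type, beside 38.2 to 47.2%, and 13 to 29 for TDG KD, beside 15.7 to 47.3%. The number of genes called between siRNA control and wild type was 0 to 5. The median wild-type level at the TSS was 0.0337 rather than 0.0244 reads per bin per M reads without taking off the library mean. The other 62 values were classed as unchanged, counts by a limit on their ratio, levels and percentiles by the spread between replicates. They included those with other windows, another TSS, another CGI definition, ranks, the prefix as a block and percentiles within the chromosome. Counts in this class could still shift. Wild type went from 27 to 35 genes at the TSS with either replicate, where the share of all genes is at least the 53.3% of BHAM359 alone. The siRNA control went from 20 to 28 in the body without replicate 2, beside 45.8% of all genes. The labels give no replicate numbers, so no block by number was fitted. With the prefix as a block over the 4 siRNA libraries, limma called 48 genes lower in TDG KD, none of them among the 39. In BHAM480, the shallowest library, 13 of 39 windows were unconfident, and the part of depth in this was not tested.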
